A study of Mus musculus with 6 samples.

Results

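The 9 genes described here encode the tissue inhibitors of metalloproteinases (Timp1, Timp2, Timp3 and Timp4), the matrix metalloproteinases Mmp2, Mmp3, Mmp9 and Mmp14, and the membrane-anchored inhibitor Reck. They were taken by symbol from a deposited table of 32179 genes, and all 9 were listed. RNA was sequenced from vascular smooth muscle cells (SMC) that had been sorted from mouse skeletal muscle, in 3 control libraries and 3 iSM-G5C-KO libraries, in which the orphan receptor GPRC5C was to be depleted from smooth muscle. All mice were male, of strain C57BL6J, aged 8 to 24 weeks, labelled Gprc5c-floxed and treated with tamoxifen. All carried the mTmG reporter, which switches a cell to green fluorescence after Cre recombination, and green cells were sorted after depletion of CD31+, CD45+ and Ter119+ cells. The genotype label is wild type in controls and iSM-G5C-KO in the others, and the sources used here do not name the Cre driver. The study's question was how gene expression in SMC differs after depletion of GPRC5C.

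Matrix metalloproteinases (MMPs) are zinc-dependent proteases that cut collagens, laminins and other matrix proteins, and most are secreted as inactive proenzymes. TIMPs bind the active site of MMPs in a tight complex, and TIMP2 also has a docking role: together with the membrane protease MMP14 it holds the proenzyme of MMP2 at the cell surface, where a free MMP14 molecule cuts it. In the vessel wall these proteins take part in the turnover of the basement membrane and elastic lamellae around SMC.

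Values are read counts per gene that the authors scaled to the library and rounded, here called normalised counts. Their sums were 2030819 to 2216011 per library, from an estimated 1479598 to 2935114 reads, which leaves the low genes below with few reads. Gprc5c itself measured 428, 532 and 497 in control libraries 1, 2 and 3, against 328, 305 and 360 in KO libraries 1, 2 and 3, so it was lower in every KO library and kept 68.2% of the control mean (adjusted p = 0.999 from limma). The labels do not say which exons were deleted, and reads from other exons would still count. Smooth muscle markers (Acta2, Myh11, Tagln, Cnn1, Des, Lmod1, Synpo2 and Smtn) summed to 11303 to 11859 in controls and 9995 to 11622 in KO libraries. On the log2 scale 8 of 8 were lower in KO, with a median difference of -0.10. The differences ran from -0.29 (Cnn1) to -0.0003 (Acta2). Acta2, Des and Tagln were nearly level, with KO means at 100.2%, 99.9% and 99.0% of control. Fibroblast markers were present too: all 11 of 11 were tested, none was at 0, and they summed to 5375 to 7939 in controls and 4597 to 7523 in KO libraries, with 9 of 11 lower in KO and a median log2 difference of -0.09. In such bulk libraries, fewer cells of a type and less RNA per cell cannot be told apart. Control library 3 had values above 0 for 29707 genes, against 20481 to 21179 in the other libraries.

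The promoter windows of the gene with the highest level (Timp3) and of the gene with the clearest group difference (Mmp3) are shown because they differ in kind. Both run 5′ to 3′ on the strand of the gene, from 250 bases before to 50 bases after the RefSeq start (GRCm38.p6), at chr10:86300162-86300461 for Timp3 and chr9:7445572-7445871 for Mmp3, both on the plus strand. Capitals mark matches, on either strand, to the AP-1 element TGANTCA and to the TATA box TATAAA.
Timp3: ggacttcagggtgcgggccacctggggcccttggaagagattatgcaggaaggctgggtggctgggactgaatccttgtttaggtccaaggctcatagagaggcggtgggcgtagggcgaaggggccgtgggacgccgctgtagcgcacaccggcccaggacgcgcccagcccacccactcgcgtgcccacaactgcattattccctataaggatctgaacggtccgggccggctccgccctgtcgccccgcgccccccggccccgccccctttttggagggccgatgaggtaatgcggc
Mmp3: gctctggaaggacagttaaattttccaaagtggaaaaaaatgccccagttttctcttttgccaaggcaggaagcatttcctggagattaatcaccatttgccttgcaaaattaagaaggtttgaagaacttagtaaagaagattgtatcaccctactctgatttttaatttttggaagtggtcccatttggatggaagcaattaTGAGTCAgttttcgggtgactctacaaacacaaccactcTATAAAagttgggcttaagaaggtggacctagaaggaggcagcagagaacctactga
The Mmp3 window held 1 AP-1 element, which begins 46 bases before the start, and 1 TATA box, which begins 7 bases before it. Its GC content was 40.0% and it had 1 CpG dinucleotide, and it was the only 1 of the 7 members with a window in the table that held either motif. Over all 32851 windows of that length, 7.81% held an AP-1 element and 13.6% a TATA box. The Timp3 window held neither, had a GC content of 67.0% and 24 CpG dinucleotides, and held 2 GC boxes (GGGCGG), a motif found in 35.7% of all windows. The windows of Timp2 and Reck resembled it, with 25 and 23 CpG dinucleotides, whereas that of Timp4 had 2. These matches describe letters and do not show binding.

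Per 1000 bases of exon, the inhibitors Timp3 and Timp2 were the most abundant of the 9 transcripts, followed by the gelatinase Mmp2 and the membrane protease Mmp14. Timp3 averaged 177 ± 25.8 normalised counts per 1000 exon bases over the 6 libraries (SD, n = 6), Timp2 149.6 ± 8.98, Mmp2 130.3 ± 30.5 and Mmp14 83.8 ± 19.5. These levels lay above those of 98.5%, 97.8%, 96.9% and 92.7% of the tested genes, whose median was 21.0. A middle pair followed, Reck at 32.0 ± 3.48 and Timp4 at 31.9 ± 5.07, and then Mmp3 at 14.4 ± 6.68, Timp1 at 10.9 ± 10.9 and Mmp9 at 4.47 ± 3.35.

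In all 6 libraries Timp3 exceeded Timp2 and Mmp2 exceeded Mmp14, although the ranges over libraries overlapped in both pairs. Timp2 exceeded Mmp2 in 4 of 6 libraries, Reck exceeded Timp4 in 4 of 6, Mmp3 exceeded Timp1 in 4 of 6 and Timp1 exceeded Mmp9 in 4 of 6, so these neighbours do not differ beyond their spread. The steps from Mmp14 down to Reck and from Timp4 down to Mmp3 were the only ones between neighbours with no overlap of their ranges. Summed per 1000 exon bases, the 4 TIMPs were at 338, 363 and 368 in control libraries 1, 2 and 3, against 348, 374 and 428 in KO libraries 1, 2 and 3. The 4 MMPs measured 196, 228 and 278 in the controls, against 153, 282 and 261 in the KO libraries. Summed in this way, the 4 TIMPs exceeded these 4 MMPs in every library. The ratio was 1.33 to 1.73 in controls and 1.32 to 2.27 in KO libraries, and the groups overlapped. The 16 other listed MMPs are outside this ratio. They summed to 567 to 722 normalised counts, not scaled to length, in controls and 560 to 840 in KO libraries. How the TIMPs compare with all MMPs was not computed.

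**Figure D1:**
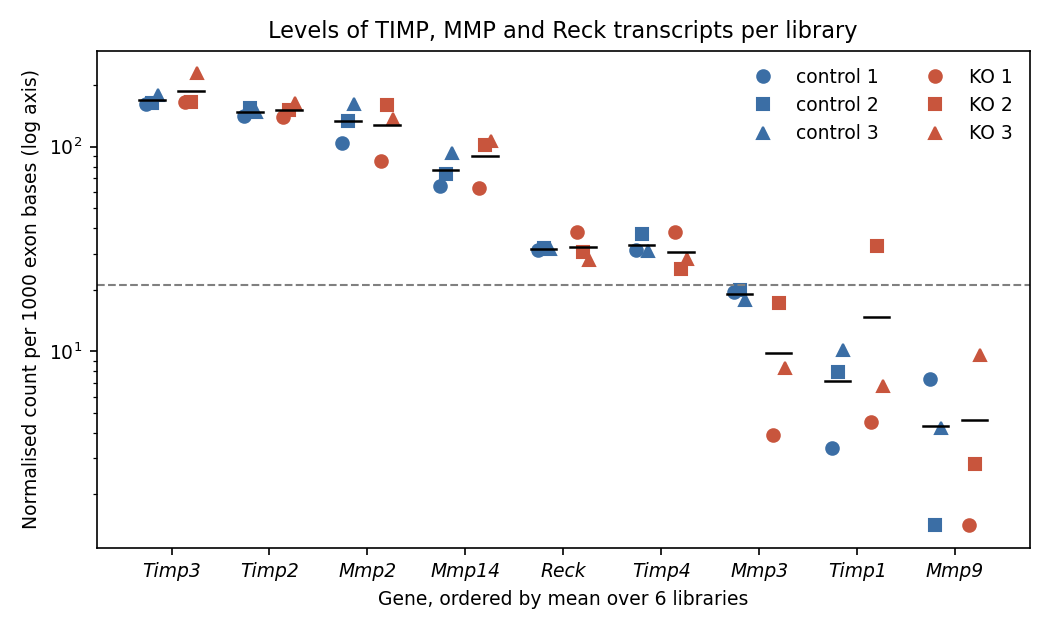
Normalised counts per 1000 exon bases of the 9 genes (log axis) in each library, with controls in blue, KO libraries in red, marker shapes for replicate numbers and black lines for group means; the dashed line is the median of all tested genes, 21.0. Timp3, Timp2, Mmp2, Mmp14, Reck and Timp4 lie above that line in all 6 libraries, and Mmp3 is the only gene whose control and KO points do not overlap.

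Between the groups, no member passed the test. With limma on log2(normalised count + 1) over the 12735 genes with a mean of at least 10, 0 of 8 tested members had an adjusted p under 0.05, and 0% of all tested genes did. With the replicate number as a block, 0 of 8 members passed, against 0.00785% of all tested genes. At an unadjusted p under 0.05 there was 1 member, Mmp3, against 1.81% of all genes without the block, and again 1 member, Mmp3, against 10.2% with the block. Of the 8 tested members the KO mean was higher on the log2 scale in 4 and lower in 4, with a median log2 difference of -0.02, and over all tested genes 50.2% were higher, with a median of 0.0011. Timp1 had a mean of 9.67 and fell below the filter. Only Mmp3 had groups that did not overlap, as in 4.91% of all tested genes.

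Among the inhibitors, Timp3 had its highest value in KO library 3 and differed little among the other 5 libraries. It encodes the TIMP that binds to the extracellular matrix and that also inhibits ADAM sheddases, and it maps to the plus strand of chromosome 10, bases 86300372 to 86349506 (ENSMUSG00000020044, GRCm38). Timp3 measured 1319, 1332 and 1464 normalised counts in control libraries 1, 2 and 3, against 1347, 1345 and 1860 in KO libraries 1, 2 and 3. KO library 3 was the highest of the 6, and the other KO libraries lay within the control range. The log2 difference was 0.13 ± 0.16 (SE), with a 95% confidence interval of -0.24 to 0.50, and adjusted p was 0.999 with limma. Without KO library 3 it was -0.03.

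Timp2, the secreted inhibitor that also docks the proenzyme of MMP2, had the smallest SD relative to its mean over the 6 libraries. It maps to the minus strand of chromosome 11, bases 118301069 to 118355506 (ENSMUSG00000017466), and measured 552, 600 and 574 in the controls, against 544, 587 and 640 in the KO libraries. The KO values lay on both sides of the control range. On the log2 scale the difference was 0.03 ± 0.11 (SE), and its 95% confidence interval corresponds to a fold of 0.853 to 1.23 (adjusted p = 0.999 with limma). Cep295nl, a gene on the same strand within Timp2, was at 20 to 63.

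Timp4, the TIMP with the most restricted tissue pattern, known from heart, skeletal muscle and fat, measured 184, 220 and 183 in the controls, against 226, 149 and 167 in the KO libraries. KO library 1 was above every control and the other KO libraries were below every control. KO minus control came to -0.13 ± 0.18 (SE), with a 95% confidence interval of -0.55 to 0.28 and an adjusted p of 0.999 with limma. It was -0.30 without KO library 1, -0.0048 without KO library 2, -0.087 without KO library 3 and -0.045 without control library 2, and -0.40 with sample quality weights, with no call in any of these. Adipocyte markers are given because fat is a known source of Timp4. They summed to 87, 158 and 138 in the controls, against 45, 90 and 66 in the KO libraries. Most of each sum was Car3 alone, at 49, 122 and 123 in the controls, against 26, 78 and 55 in the KO libraries. Of the 6 markers, 2 were tested, Car3 and Plin1, both with a lower KO mean and overlapping groups. Of the other 4, Adipoq was at 2, 4 and 4 in controls and at 0 in the KO libraries, whereas Cidec, Lep and Retn were at 0 to 3 with higher KO means. Markers of skeletal muscle fibres went the other way: on the log2 scale 8 of 9 were higher in KO libraries, with a median difference of 0.37. Their sums were 1397, 2129 and 3276 in the controls, against 1987, 4180 and 8648 in the KO libraries. Much of that difference was Ttn, at 422, 442 and 868 against 660, 1638 and 5386. The KO means of the other fibre markers ran from 83.3% (Mylpf) to 362% (Ryr1) of control, with Ckm at 99.3% and Acta1 at 102%. Neither sum ordered the libraries as Timp4 did, and the part of these cells in its values was not tested. The gene maps to the minus strand of chromosome 6, bases 115241892 to 115252205 (ENSMUSG00000030317).

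Timp1, the TIMP most readily induced by cytokines and growth factors, was close to the lower limit of what these libraries can measure. Control libraries had 3, 7 and 9 normalised counts, against 4, 29 and 6 for the KO libraries. The value of 29 in KO library 2 rests on about 31 reads, with an exact 95% Poisson interval of 19.4 to 40.6 normalised counts, and no control exceeded 9, which rests on about 7 reads (3.73 to 19.1). These intervals cover counting error only. The other KO values lay among the controls. Tested with no filter on low values, the log2 difference was 0.57 ± 0.73 (SE), with a 95% confidence interval of -1.09 to 2.23 and an adjusted p of 0.839 with limma. In the same KO library Adam12, a gene of a metalloprotease of activated mesenchymal cells that was picked after its values were seen, was at 202. The controls were at 48, 59 and 57 and KO libraries 1 and 3 at 13 and 38. Timp1 maps to the plus strand of chromosome X, bases 20870166 to 20874735 (ENSMUSG00000001131).

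In the annotation Timp1, Timp3 and Timp4 each lie within a synapsin gene on the opposite strand, Syn1, Syn3 and Syn2. Syn1 was at 2 to 7, Syn3 at 0 to 11 and Syn2 at 4 to 20 normalised counts. The sources used here do not tell if counting was strand-aware, and without that reads from overlapping exons cannot be assigned. In control library 1 and KO library 1 Syn1 was at 3 and 5, at least as high as Timp1 at 3 and 4, whereas Syn3 and Syn2 were far below Timp3 and Timp4 in every library.

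Reck, a membrane-anchored glycoprotein that inhibits several MMPs and is needed for vessel formation in the embryo, had nearly equal values in the controls. It measured 150, 153 and 151 in the controls, against 184, 146 and 134 in the KO libraries, so that the KO values lay on both sides of the controls. The means were 151.3 ± 1.53 and 154.7 ± 26.1 (SD, n = 3 each), with a log2 difference of 0.02 ± 0.15 (SE) and an adjusted p of 0.999 with limma. The gene maps to the plus strand of chromosome 4, bases 43875530 to 43944806 (ENSMUSG00000028476).

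Mmp14, the membrane-type protease that cuts fibrillar collagen and the proenzyme of MMP2, was lowest in both libraries numbered 1 and did not pass the test between groups. It measured 384, 438 and 556 in control libraries 1, 2 and 3, against 373, 609 and 637 in KO libraries 1, 2 and 3. KO libraries 2 and 3 were above every control, and KO library 1 was below every control. The log2 difference was 0.21 ± 0.23 (SE), with a 95% confidence interval of -0.34 to 0.76, and the adjusted p of limma was 0.999 (0.543 with the replicate block). Between same-numbered libraries it was -0.04, 0.47 and 0.20 for numbers 1, 2 and 3. The group difference was 0.46 without KO library 1, 0.36 without control library 3, 0.07 without KO library 3, 0.09 without control library 1 and 0.10 without KO library 2, and it passed the test in none of these. Mmp14 maps to the plus strand of chromosome 14, bases 54431612 to 54445364 (ENSMUSG00000000957).

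Mmp2, gelatinase A, the target of MMP14, was likewise lowest in both libraries numbered 1. It measured 352, 448 and 548 in the controls, against 288, 540 and 459 in the KO libraries, and the groups overlapped. Its log2 difference was -0.09 ± 0.26 (SE), with a 95% confidence interval of -0.69 to 0.51 and an adjusted p of 0.999 with limma. Per 1000 exon bases the ratio of Mmp2 to Mmp14 was 1.62, 1.81 and 1.74 in the controls, against 1.37, 1.57 and 1.27 in KO libraries, lower in each KO library than in any control. This ratio was formed after the values were seen and was not tested. Mmp2 maps to the plus strand of chromosome 8, bases 92827291 to 92853420 (ENSMUSG00000031740).

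Both proteases are well expressed by fibroblasts, and the summed fibroblast markers (Pdgfra, Dcn, Lum, Dpt, Pi16, Col1a1, Col1a2, Cd34, Fap, Scara5 and Smoc2) are therefore given beside them. The sums were 5375, 6980 and 7939 in control libraries 1, 2 and 3, against 4597, 7523 and 7049 in KO libraries 1, 2 and 3. Most of each sum came from Col1a1 and Col1a2, with means of 2302 and 1906 over the 6 libraries, so the shares below rest largely on these collagen genes. Mmp2 ranked the 6 libraries in the same order as this sum, and amounted to 6.42 to 6.90% of it in controls and 6.26 to 7.18% in KO libraries. Mmp14 had the same rank as the sum in 4 of 6 libraries and amounted to 6.28 to 7.14% of it in controls and 8.10 to 9.04% in KO libraries, where the groups do not overlap. These shares were formed after the values were seen, describe 6 libraries that also share a replicate number and depth, and carry no test. The part of fibroblast RNA in these differences was not tested.

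**Figure D2:**
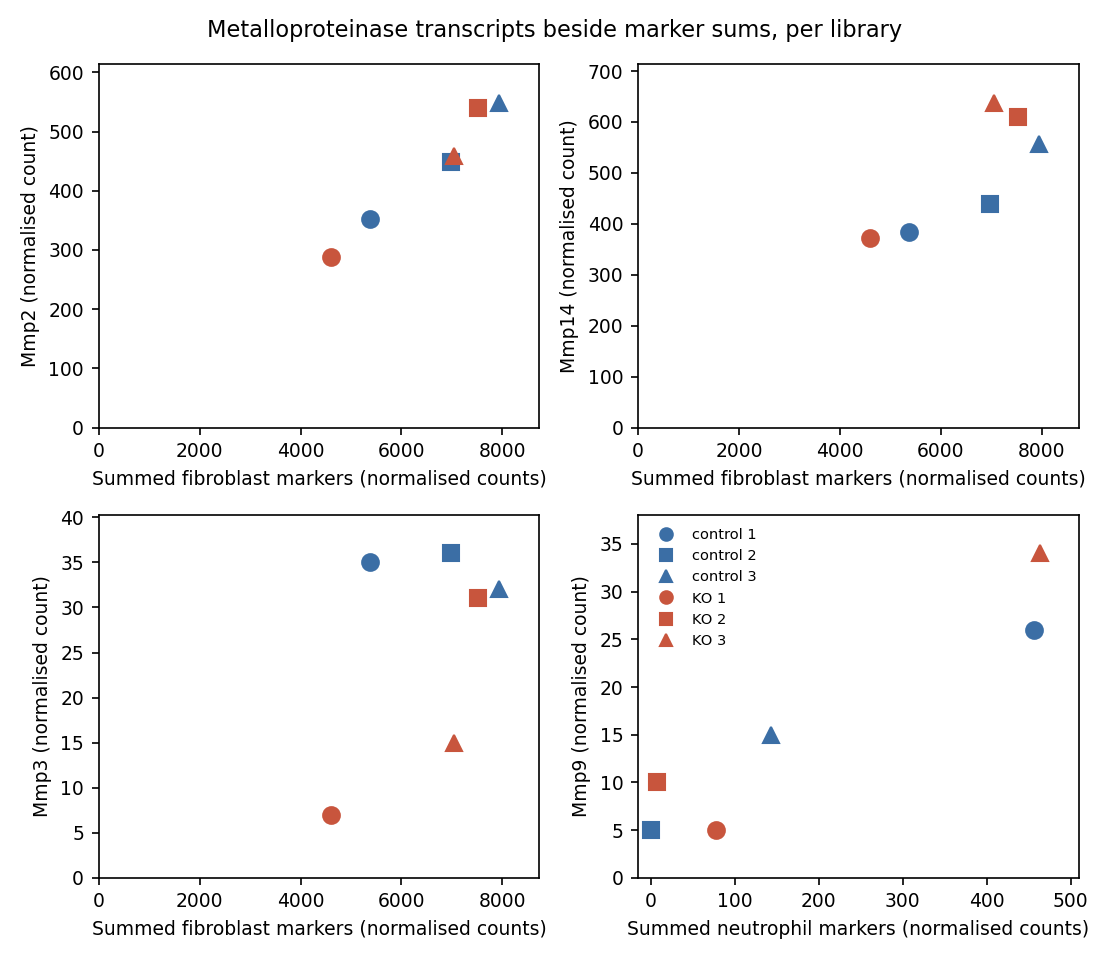
Each panel plots a protease (vertical axis, normalised count) against the summed normalised counts of marker genes in the same library (horizontal axis), with controls in blue, KO libraries in red and marker shapes for replicate numbers. Mmp2 rises with the fibroblast sum through all 6 libraries, Mmp3 is at 7 and 15 in KO libraries 1 and 3 and at 31 to 36 elsewhere, and Mmp9 is highest where the neutrophil sum is 456 and 463.

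Mmp3, stromelysin 1, which cuts basement membrane proteins and activates other proenzymes, had the clearest group difference of the 9. It measured 35, 36 and 32 normalised counts in control libraries 1, 2 and 3, against 7, 31 and 15 in KO libraries 1, 2 and 3. Every KO value lay below every control, by 1 count in the case of KO library 2. The means were 34.3 ± 2.08 and 17.7 ± 12.2 (SD, n = 3 each), so the KO libraries were at 51.5% of the control level. The difference in log2 was -1.14 ± 0.48 (SE), with a 95% confidence interval of -2.25 to -0.03, and limma over all genes gave an unadjusted p of 0.0450 and an adjusted p of 0.999, a miss, as it was with the replicate block (unadjusted p = 0.0136, adjusted p = 0.329). The exact permutation test on its 6 values gave a 2-sided p of 0.1, the smallest that 3 against 3 libraries allow.

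KO library 1 decides much of the size of the Mmp3 difference. Its value of 7 rests on about 8 reads, with an exact 95% Poisson interval of 2.87 to 13.1 normalised counts, and the value of 15 in KO library 3 on about 11 reads (7.68 to 27.5). The control values rest on about 46, 39 and 24 reads, and the lowest of them, 32, has an interval of 20.4 to 47.4. Without KO library 1 the log2 difference was -0.64, and without KO library 2 it was -1.64. KO library 1 also had the lowest fibroblast sum, 4597, but as a share of that sum Mmp3 was at 0.651, 0.516 and 0.403% in the controls, against 0.152, 0.412 and 0.213% in KO libraries, so that KO library 2 then lay within the control range. Of the AP-1 genes, Junb and Fosb had lower values in every KO library, and Fos and Jun overlapped between groups. Junb measured 711, 701 and 706 in the controls, against 681, 504 and 651 in the KO libraries. Fosb stood at 986, 1022 and 971 against 882, 588 and 787. Both genes were lowest in KO library 2, in which Mmp3 was highest among the KO libraries, and a link was not tested. Of 11 genes of dissociation stress, which include Junb, Fosb, Fos and Jun, 9 had a lower KO mean. The median log2 difference of the 11 was -0.22, with 0 calls. They summed to 8037, 8349 and 8639 in the controls, against 8040, 6124 and 8126 in the KO libraries. Only KO library 2 lay below the control range. Mmp3 maps to the plus strand of chromosome 9, bases 7445822 to 7455975 (ENSMUSG00000043613).

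Mmp9, gelatinase B, which neutrophils store in granules, was low, with its highest values in the libraries with the most neutrophil marker RNA. It measured 26, 5 and 15 in the controls, against 5, 10 and 34 in the KO libraries, so the groups overlapped. The log2 difference was -0.06 ± 0.78 (SE), with a 95% confidence interval of -1.87 to 1.76 and an adjusted p of 0.999 with limma. Neutrophil markers (S100a8, S100a9, Csf3r, Cxcr2, Ly6g, Ngp, Camp and Retnlg) summed to 456, 0 and 143 in the controls, against 78, 7 and 463 in the KO libraries. In control library 2 all 8 were at 0, and Mmp9 was at 5 there. The libraries with the highest sums, KO library 3 and control library 1, also had the highest Mmp9, and Mmp8, the neutrophil collagenase, measured 14, 0 and 9 in the controls, against 2, 0 and 13 in the KO libraries. The part of neutrophil RNA in the Mmp9 values was not tested. Mmp9 maps to the plus strand of chromosome 2, bases 164948219 to 164955850 (ENSMUSG00000017737).

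**Figure D3:**
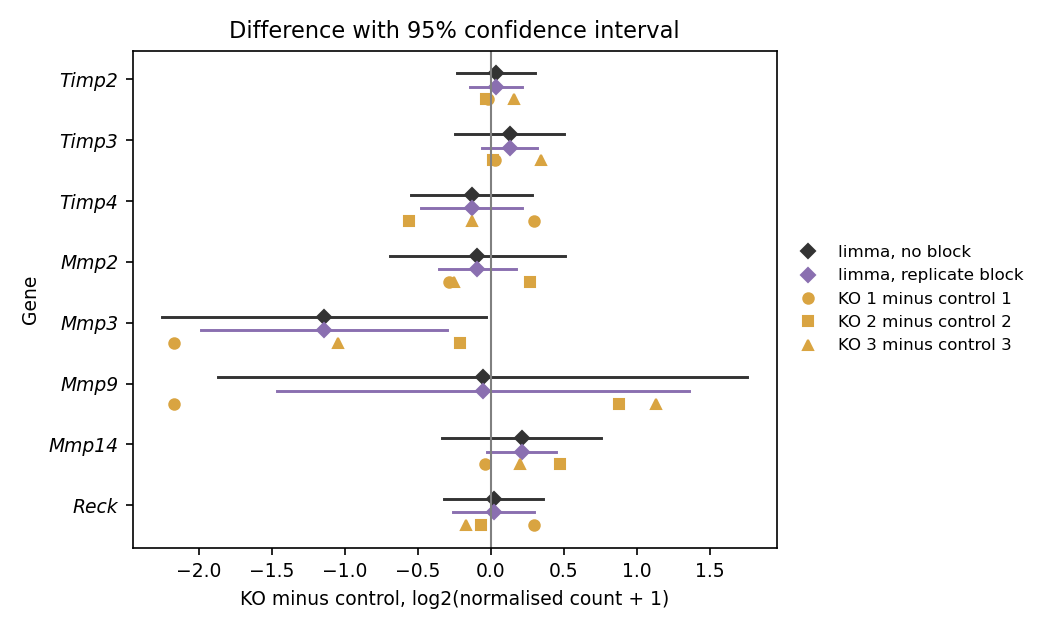
KO minus control on the log2(normalised count + 1) scale for the 8 tested genes, with diamonds for the group difference, bars for its 95% confidence interval without (dark) and with (violet) the replicate block, and yellow marks for the differences between same-numbered libraries. Mmp3 has the only bars that leave out 0, and for Timp4, Mmp2, Mmp9, Mmp14, Timp2 and Reck the same-numbered differences lie on both sides of 0.

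For the 3 members with the highest mean counts, the genes of most similar pattern over the 6 libraries were sought among 8339 genes with a mean of at least 50, predicted genes (names with Gm and a number, or Rik) left out. Timp3 was most like Ano1, a calcium-activated chloride channel of smooth muscle (Pearson r = 0.99), and Plcd3, a phospholipase C (0.99). Timp2 was most like Sptlc1, a subunit of serine palmitoyltransferase (0.99), and Rpl36, a ribosomal protein (0.99). Mmp14 was most like Mxra7, a matrix-remodelling-associated protein, and Oaf, both with r = 1.00 after rounding. With 6 libraries such values are common: 105, 221 and 603 genes had an r over 0.9 with Timp3, Timp2 and Mmp14. Oaf was at 123, 147 and 215 in the controls, against 112, 235 and 272 in the KO libraries, the same low values in the libraries numbered 1 as for Mmp14.

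Other genes of matrix proteolysis gave 0 calls in each of 6 lists, with limma and also with the replicate block. Of 19 other MMPs, 16 were listed and 6 tested, 2 higher and 4 lower in KO libraries, with a median log2 difference of -0.07. The membrane-type Mmp15 measured 164, 200 and 243 in the controls, against 140, 347 and 408 in the KO libraries (log2 difference 0.44), and Mmp17, a glycosylphosphatidylinositol-anchored MMP of SMC, at 239, 233 and 167 against 260, 173 and 115 (-0.28). Mmp11, stromelysin 3, measured 58, 136 and 183 in the controls, against 86, 170 and 178 in the KO libraries. All 3 overlapped between groups, and Mmp13, Mmp12 and Mmp8 were at or below 14 in every library.

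Of the 10 ADAM genes, which encode membrane sheddases and related proteins, all were tested, 4 higher and 6 lower, with a median of -0.21. Those with the smallest p were Adam15 (-0.23), Adam10 (0.22) and Adam23 (-0.38), all with overlapping groups. Adam17, the TNF-releasing sheddase that TIMP3 inhibits, measured 270, 238 and 207 in the controls, against 260, 206 and 158 in the KO libraries.

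In the list of plasminogen activation, a protease cascade that can activate MMPs, 8 of 9 tested members were higher in KO libraries, with a median of 0.18. Plat, tissue plasminogen activator, measured 194, 212 and 187 in the controls, against 244, 290 and 228 in the KO libraries, with groups that did not overlap, a log2 difference of 0.35 ± 0.13 (SE) and an adjusted p of 0.999 with limma (0.246 with the replicate block). It was the only gene of these 9 with an unadjusted limma p under 0.05 (0.0296), against 1.81% of all tested genes. Groups did not overlap in 4.91% of all tested genes, and 50.2% were higher in KO libraries on the log2 scale. In limma with the replicate block, Plat, Anxa2 and Serping1 had unadjusted p of 0.0043, 0.0081 and 0.037. The share of all tested genes under 0.05 was then 10.2%. Plgrkt, a plasminogen receptor, and Anxa2, which binds tissue plasminogen activator, had differences of 0.31 and 0.35 with overlapping groups. Endothelial and pericyte markers also had higher KO means. All 9 of 9 endothelial markers did, with a median log2 difference of 0.23 and sums of 338 to 671 in controls and 396 to 922 in KO libraries. Much of that difference was Flt1, at 100, 185 and 241 in the controls, against 117, 482 and 380 in the KO libraries. KO means were also higher for 7 of 7 pericyte markers (median 0.20), which summed to 9761 to 14823 in controls and 10401 to 17053 in KO libraries. The smooth muscle markers summed to 11303 to 11859 and 9995 to 11622, and whether the pericyte markers come from SMC or from separate cells was not tested. Neither list had a call, none of their genes was at 0 in all libraries, and Plat is well expressed by endothelial cells. The part of these cells in the plasminogen list was not tested.

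Cysteine cathepsins and cystatins had 5 of 8 tested members higher and a median of 0.04, and Ctsc (-0.24), Ctss (0.47) and Cst3 (0.11) had the smallest p. Genes of MMP activation, clearance and docking had 9 of 14 higher and a median of 0.06, with the smallest p for Pcsk6 (0.78), Cd151 (0.18) and Cd44 (0.31). In that list Furin, the convertase that activates pro-MMP14, measured 443, 426 and 374 in the controls, against 399, 424 and 406 in the KO libraries. Lrp1, the endocytic receptor that clears MMPs and TIMPs, measured 2844, 3569 and 4554 in the controls, against 2908, 3774 and 5044 in the KO libraries. Inducers of Timp and Mmp transcription had 4 of 14 higher and a median of -0.07, with the smallest p for Junb (-0.22), Fosl2 (-0.52) and Ets2 (-0.37). Of the cytokine genes in that list, Il6 was at 98 to 251 and Il1b at 0 to 42 over all libraries, both with overlapping groups.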

How the data were processed

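Bulk RNA sequencing covered 3 control and 3 iSM-G5C-KO libraries, grouped by their descriptions. Per the submitters' processing notes, DESeq2 1.18.1, featureCounts 1.6.5, STAR 2.6.1d and Trimmomatic 0.39 were used with builds GRCm38.p5 and mm10; no roles are given. The authors deposited a score per gene and library: counts scaled by a factor per library and rounded, judging by the name and the values. The worth of a read, from 0.755 to 1.399, was estimated from how often each value occurs; rounding prevents recovery of whole reads.

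KO was compared with control on the log2 scale by limma 3.58.1 (R 4.3.3), with a pseudocount of 1, an intensity trend and 2-sided p-values, on 12735 genes with a mean of at least 10, with Benjamini-Hochberg adjustment over all of them and a threshold of 0.05. The code was tested on simulated data. Exon lengths are unions of GENCODE M21 exons (GRCm38), and promoter windows are from RefSeq (GRCm38.p6), which held 7 of the 9 genes. No source says that libraries are from separate animals; p-values then reflect only the spread of these samples, possibly a technical one. Over genes, same-numbered libraries deviated together from their group means (correlations 0.586, 0.310 and 0.444). The main fit did not pair libraries, and values given without mention of the block are from it. The replicate number entered as a block only in alternative fits, a choice from the data and not from a label.

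The members, lists and tests were chosen with earlier results of these data known. The text names all 9 members and, per pathway list, the 3 tested genes with the smallest p; Gprc5c checks the labels. Other genes named with values were added after values were seen. These are Mmp8, Mmp12, Mmp13, Adam12, Adam17, Serping1, Fos, Jun, Fosb, Fosl1, Adipoq, Furin, Lrp1, Il6, Il1b and overlapping genes. Single marker genes given with their own values, such as Ttn, Car3, Col1a1 and Flt1, were also named without a rule fixed beforehand.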

Additional observations from a re-analysis of the deposited data

How the results depend on the processing

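No member passed in any of 18 alternatives (0 of 142 values for the 8 genes, and 0 of 7 for Timp1, tested in 7 of them and at 0.18 to 1.11), of which the 3 that combine the replicate block with both libraries of a number left out were chosen after seeing the data. The count over all tested genes was 2 with sample quality weights, 1 with the replicate block, and, with that block, 17 after leaving out number 1 and 1 after leaving out number 2; it was 0 in the others, and the cause was not tested. Mmp3 was lower (-1.64 to -0.63) and Mmp14 higher (0.07 to 0.46) in KO libraries in each alternative that tested them, and the other members of the 8 turned in 17 values. Leaving out 1 library gave -0.025 to 0.092 for Timp2, -0.026 to 0.21 for Timp3, -0.30 to -0.0048 for Timp4, -0.28 to 0.17 for Mmp2, -0.76 to 0.51 for Mmp9 and -0.11 to 0.11 for Reck. With sample quality weights Mmp2 was at 0.10, Mmp9 at 0.96 and Reck at -0.061. With the block and number 1 left out, Mmp2 was at 0.0069, Mmp9 at 1.00 and Reck at -0.12; with number 2 left out Timp4 was at 0.082, and with number 3 left out Timp2 was at -0.026. The block alone moves no difference and changed no member's call. Without the filter on low values the median of all genes was -0.14, against 0.0011 with it. Depth limits Timp1, Mmp3 and Mmp9 most, at about 4 to 46 reads per library.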
